A study of Mus musculus with 8 samples.

Results

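Bone morphogenetic proteins (BMPs), their secreted antagonists and the Id genes were examined in brain cells of mice with the S89G point mutation in DMP1, a matrix protein, and of wild type (WT) mice. The 10 genes were chosen by name: the ligands Bmp2, Bmp4, Bmp6 and Bmp7, the antagonists Chrdl1 and Nbl1, and the Id genes Id1, Id2, Id3 and Id4. All 10 are listed in both count tables, among 47859 genes in all. Messenger RNA was sequenced in 8 libraries, with 3 libraries per genotype from neural stem cells (NSCs) and 1 library per genotype from astrocytes. The NSCs were grown from the sub-ventricular zone as neurospheres, and the astrocytes were cultured from cortex in medium with serum. All mice were C57BL/6 and, by the labels, 10 weeks old, where the methods give 3 months for the astrocyte cultures. The mutant mice were homozygous for the knock-in, made by homologous recombination in embryonic stem cells with the selection cassette removed by crossing to an FLP line, and carry it in every cell. Whether the WT mice were littermates is not given in the sources used here. Nor is it given whether the 3 NSC libraries of a genotype came from separate animals or cultures. P-values therefore measure only the spread between these libraries, which may be technical. The mean chi-square per gene between the counts of 2 NSC libraries was 1.07 to 1.51 within a genotype. Between genotypes it was 3.17 to 4.06, and counting error alone gives about 1. The source of the spread within a genotype was not tested.

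BMPs are secreted ligands that bring type I and type II receptors together on the cell surface, and the activated receptors phosphorylate SMAD1, SMAD5 and SMAD9, which enter the nucleus with SMAD4. Id genes are direct targets of these SMADs, and Id proteins bind E proteins, the common partners of basic helix-loop-helix (bHLH) transcription factors, and keep them off DNA. In the adult sub-ventricular zone BMP signaling is known to hold stem cells in quiescence and to favor astrocyte fates, and secreted antagonists limit its reach.

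Reads counted on genes ranged from 2354615 to 2588130 per NSC library and were 14008670 in the WT and 13016924 in the S89G-DMP1 astrocyte library. Dmp1 itself had 18, 21 and 16 counts in the WT NSC libraries and 6, 3 and 5 in the S89G-DMP1 ones, against 2 counts in WT and 119 in S89G-DMP1 astrocytes. The progenitor marker Nes was the most abundant of its list in all 6 NSC libraries. The summed level of 10 astrocyte markers was higher in S89G-DMP1 NSCs, at 2350 to 2390 CPM (counts relative to the scaled library total) against 1805 to 1849 CPM, with 4 of 8 tested markers called higher by edgeR. The library labelled WT astrocytes went largely against its label, with 8 counts of Aqp4, 8 of Slc1a3 and 90 of Gfap. The S89G-DMP1 library had 4051, 3877 and 901. Astrocyte, fibroblast and meningeal, and mural markers summed to 179, 5424 and 3266 CPM in the library labelled WT astrocytes. In the S89G-DMP1 astrocyte library they summed to 1293, 2214 and 3969 CPM. The name WT astrocytes is used below as the label gives it. The WT astrocyte library also held 12172 counts of the X-linked Xist and 0 of the Y-linked Ddx3y, against 74 and 1277 in the S89G-DMP1 library. All 6 NSC libraries held both transcripts, with 2718 to 3001 counts of Xist and 45 to 77 of Ddx3y.

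Promoter windows, from 250 bases before to 50 after the RefSeq start, were given for 6 of the 10 genes. The letters GGCGCC, which resemble the GC-rich element described for BMP-responsive SMADs and read the same on both strands, were found in the windows of Nbl1, Id2 and Id4, and in 11.9% of 32851 windows of the same length. They were not found in those of Bmp4, Bmp6 and Id3. Windows with these letters had a median GC content of 66.3%, against 52.7% for all windows, and the 6 member windows had 60.0% to 78.3%. Bmp2, Bmp7, Chrdl1 and Id1 had no window to search. The stretches that precede the RefSeq starts are shown for every member whose window held the letters. These stretches were chosen by the letters and not by the levels of the genes. They are RefSeq sequences of GRCm38.p6, 5′ to 3′ on the strand of the gene, without bases inside exons of the gene itself, and capitals mark the searched letters.
Nbl1, chr4:139092994-139093220, minus strand: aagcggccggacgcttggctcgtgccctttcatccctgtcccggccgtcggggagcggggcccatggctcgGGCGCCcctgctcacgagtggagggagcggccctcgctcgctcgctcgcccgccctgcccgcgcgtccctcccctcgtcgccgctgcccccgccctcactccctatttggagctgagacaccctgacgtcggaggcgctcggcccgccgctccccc
Id2, chr12:25096254-25096342, minus strand: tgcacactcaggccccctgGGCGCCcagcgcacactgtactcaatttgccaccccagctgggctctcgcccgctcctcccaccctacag
Id4, chr13:48260866-48261115, plus strand: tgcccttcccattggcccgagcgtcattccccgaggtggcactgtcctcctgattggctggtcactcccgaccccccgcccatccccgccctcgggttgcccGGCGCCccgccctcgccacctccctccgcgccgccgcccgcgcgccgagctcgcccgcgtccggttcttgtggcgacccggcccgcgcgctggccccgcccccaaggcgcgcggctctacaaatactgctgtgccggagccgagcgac
The letters begin 179 bases before the RefSeq start of Nbl1, 231 before that of Id2 and 148 before that of Id4. The Id2 stretch lies inside the annotated span of the gene (25093799 to 25097140) and outside its exons, since the GENCODE annotation begins Id2 farther upstream than the RefSeq start, whereas those of Nbl1 and Id4 lie before the annotated gene. A match of letters is a description, and no binding was measured here.

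In NSCs, the comparison of genotypes asked which of these genes differed with the mutation in the cells that form neurospheres. Bmp7, Chrdl1 and Id3 rose, Nbl1 and Id2 fell, and Id1 was not called. These 6 genes passed the filter on low counts, with at least 14 counts in every library, while Bmp2, Bmp4, Bmp6 and Id4 did not pass it. With edgeR's quasi-likelihood test at a Benjamini-Hochberg adjusted p of 0.05, 3 of the 6 rose and 2 fell, where 7.08% of 11194 tested genes rose, 8.76% fell and 15.8% were called in either direction. The median log2 fold change was 0.20 over the 6 and 0.0026 over all tested genes. For each of the 5 called genes the 3 libraries of one genotype lay above the 3 of the other, which was so for 30.7% of all tested genes. With limma on the deposited TPM in place of counts, Nbl1 kept its call and the other 4 lost theirs.

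Bmp7 (GRCm38, chromosome 2, 172868012 to 172940321, minus strand) was the only one of the 4 ligands with more than 1 count in any NSC library. Its level was 94.4, 98.7 and 93.9 CPM in WT and 124, 119 and 108 CPM in S89G-DMP1 NSCs, after scaling by edgeR's TMM factors. Every S89G-DMP1 library was above every WT library. The means were 95.6 ± 2.64 CPM and 117 ± 8.30 CPM (SD, n = 3 each), a log2 fold change of 0.29 ± 0.081 (SE), or 1.22-fold, with an edgeR adjusted p of 0.00767. This call was lost in DESeq2 (adjusted p = 0.0887) and without S89G-DMP1 replicate 1, where the edgeR log2 fold change was 0.24 with an adjusted p of 0.0664. Bmp2 had 1 count in each S89G-DMP1 library and 1, 0 and 0 in the WT libraries. Bmp4 and Bmp6 had 0 counts in all 6, and 3 counts, the limit that a count of 0 allows, stand for 1.17 to 1.28 CPM in these libraries. These 3 ligands were therefore not detectable, or nearly so, at this depth in NSCs of either genotype. In bulk RNA, fewer cells of a type and less RNA per cell cannot be told apart, which holds for Bmp7 and for the genes that follow.

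**Figure D1:**
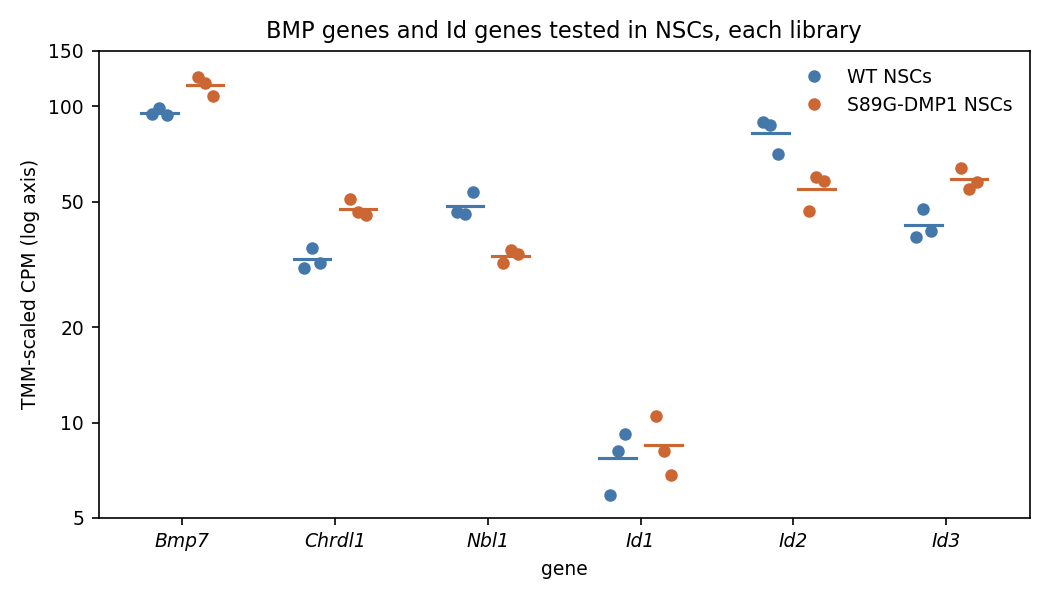
Levels of the 6 BMP and Id genes tested in NSCs, as TMM-scaled CPM on a log axis, with 1 point per library and a line at the mean of the 3 libraries of each genotype. The genotypes do not overlap for Bmp7, Chrdl1, Nbl1, Id2 and Id3, and they overlap for Id1.

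The antagonists moved in opposite directions in NSCs. Chrdl1 encodes chordin-like 1, a secreted protein that binds BMPs and keeps them from their receptors, and it rose from 30.8, 35.7 and 32.0 CPM in WT to 51.0, 46.2 and 45.3 CPM in S89G-DMP1 NSCs. The groups did not overlap, and the log2 fold change was 0.53 ± 0.123 (SE), or 1.44-fold (edgeR adjusted p = 0.000997). Nbl1, also known as Dan, encodes a secreted BMP antagonist of the DAN family, lies on chromosome 4 (139082284 to 139092993, minus strand), and it fell from 46.4, 45.8 and 53.5 CPM in WT to 32.0, 35.1 and 34.1 CPM. Every S89G-DMP1 library was below every WT library, with a log2 fold change of -0.53 ± 0.122 (edgeR adjusted p = 0.000989). The summed level of both antagonists was 77.1 to 85.5 CPM in WT and 79.4 to 83.0 CPM in S89G-DMP1 NSCs, so the sums overlapped while the make-up did not. Reads of Chrdl1 per read of Nbl1, a ratio within a library that no scaling can move, were 0.664, 0.780 and 0.597 in WT and 1.59, 1.32 and 1.33 in S89G-DMP1 NSCs. In WT there were thus fewer Chrdl1 than Nbl1 reads in every library, and in S89G-DMP1 NSCs there were more. Reads of Bmp7 per read of Nbl1 were 1.98 ± 0.205 in WT and 3.47 ± 0.368 in S89G-DMP1 NSCs (SD, n = 3 each).

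Among the Id genes in NSCs, Id2 fell and Id3 rose. Id2 lies on chromosome 12 (25093799 to 25097140, minus strand) and Id3 on chromosome 4 (136143497 to 136145755, plus strand). Id2 was at 89.3, 87.4 and 70.7 CPM in WT and 46.8, 59.9 and 58.2 CPM in S89G-DMP1 NSCs. The lowest WT library was above the highest S89G-DMP1 library, and the log2 fold change was -0.58 ± 0.103 (SE), with an edgeR adjusted p of 1.52e-05, the smallest of the members. Id3 was at 38.8, 47.4 and 40.3 CPM in WT and 64.0, 54.8 and 57.8 CPM in S89G-DMP1 NSCs. Its groups did not overlap either, with a log2 fold change of 0.48 ± 0.113, or 1.39-fold (edgeR adjusted p = 0.00122). Id1 was at 5.90, 8.16 and 9.19 CPM in WT and 10.5, 8.13 and 6.82 CPM in S89G-DMP1 NSCs, and these groups overlapped. With 14 to 25 counts of Id1 per library, the 95% interval of its log2 fold change, -0.41 to 0.65, held the change of Id3 and not that of Id2, and its edgeR adjusted p was 0.822. Id4 had 2, 2 and 3 counts in WT and 3, 0 and 2 in S89G-DMP1 NSCs, at or under the limit of 3 counts, and no fold is given. Within each library, reads of Id3 per read of Id2 were 0.434, 0.542 and 0.571 in WT and 1.37, 0.914 and 0.993 in S89G-DMP1 NSCs. The sum of the Id genes was 134.9, 143.7 and 121.4 CPM in WT and 122.6, 122.8 and 123.5 CPM in S89G-DMP1 NSCs. The sums of the genotypes thus overlapped while the shares of Id2 and Id3 moved, and the shares of Id1 and Id4 overlapped.

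To compare levels between genes, CPM were divided by the length of the merged exons of each gene in kilobases (kb). In WT NSCs Id2 stood highest, at 33.8 ± 4.21 CPM per kb (SD, n = 3), followed by Nbl1, Bmp7 and Id3 at 23.9 ± 2.11, 23.8 ± 0.657 and 23.5 ± 2.56 CPM per kb, whose libraries overlapped. Id1 and Chrdl1 followed at 6.68 ± 1.45 and 4.86 ± 0.385 CPM per kb, and these also overlapped. In S89G-DMP1 NSCs Id3 and Bmp7 stood highest, at 32.9 ± 2.63 and 29.1 ± 2.07 CPM per kb, with overlapping libraries. Id2 was then at 22.5 ± 2.93, Nbl1 at 16.6 ± 0.774, Id1 at 7.32 ± 1.62 and Chrdl1 at 7.03 ± 0.449 CPM per kb, and only the latter pair overlapped. Of the Id transcripts per kb, Id2 made up 57.6%, 51.5% and 48.5% in the WT and 29.8%, 39.5% and 38.4% in the S89G-DMP1 libraries. Id3 made up 34.0%, 38.0% and 37.7% in WT and 55.6%, 49.2% and 51.9% in S89G-DMP1 NSCs. The most abundant Id transcript per length was thus Id2 in every WT library and Id3 in every S89G-DMP1 library.

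**Figure D2:**
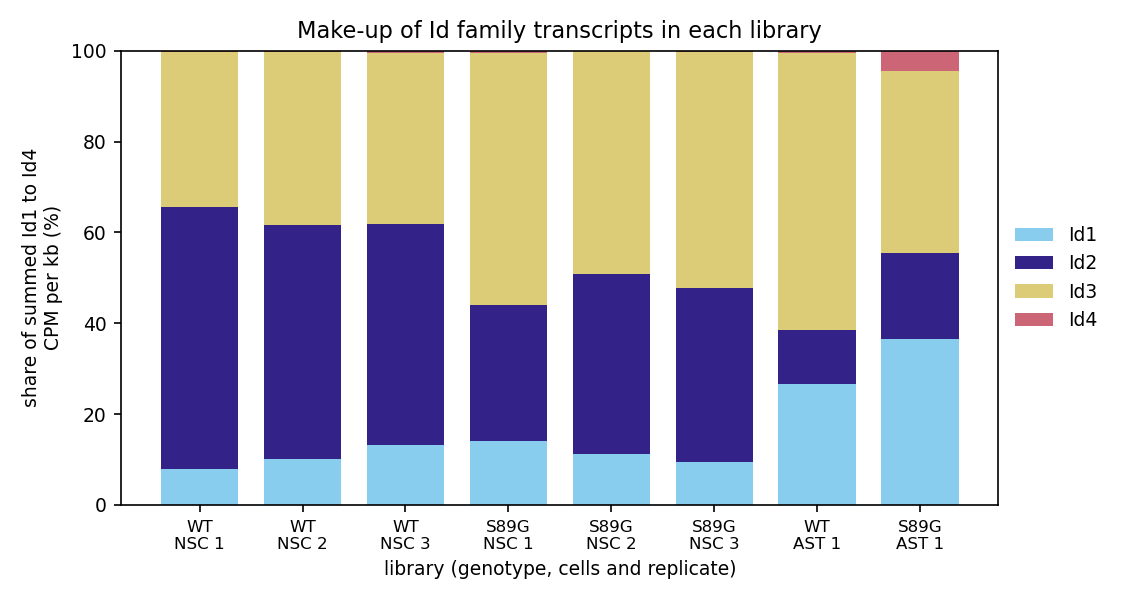
Make-up of the Id transcripts in each of the 8 libraries, as the share in percent of the summed CPM per kb of Id1 to Id4, with 1 bar per library. Id2 is the largest share in the WT NSC libraries and Id3 in the S89G-DMP1 NSC libraries, and Id4 is visible only in the S89G-DMP1 astrocyte library, at 4.45%.

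Of 57 other genes of the BMP pathway, 26 were tested in NSCs, of which 2 rose and 3 fell, with a median log2 fold change of 0.05, where 7.08% of all tested genes rose and 8.76% fell, so these counts are near the share over all genes. None of the 10 other ligands passed the filter, and 0 of 5 tested SMAD and SMURF genes and 0 of 2 other target genes were called by edgeR, as were 0 and 0 by DESeq2 and 0 and 0 at an unadjusted p of 0.05. Bmpr1b, a type I BMP receptor, rose from 82, 80 and 70 counts in WT to 114, 117 and 127 in S89G-DMP1 NSCs, a log2 fold change of 0.67 ± 0.123 (SE, edgeR adjusted p = 2.80e-05), as the only 1 of 8 tested receptors and co-receptors to be called. Crim1, a membrane protein that binds BMPs, fell from 136, 134 and 124 counts to 77, 55 and 71, a log2 fold change of -0.91 ± 0.127 (edgeR adjusted p = 7.98e-08), as the only 1 of 5 tested antagonists. The groups did not overlap for either gene. The call of Bmpr1b was lost with limma on log2(TPM + 1) and log2(TPM + 0.1), and that of Crim1 with log2(TPM + 0.1) only. The type I receptor Bmpr1a had a log2 fold change of 0.05 (95% interval -0.09 to 0.20) and the type II receptor Bmpr2 one of 0.00 (-0.13 to 0.13), and Smad1 and Smad5, which carry the signal, had -0.12 (-0.33 to 0.08) and -0.03 (-0.14 to 0.09).

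Of the bHLH genes whose products Id proteins bind or compete with, the E proteins Tcf4 and Tcf12 fell in NSCs, Tcf4 from 960 ± 43.8 to 768 ± 13.7 CPM and Tcf12 from 517 ± 18.1 to 418 ± 19.1 CPM (SD, n = 3 each). Their log2 fold changes were -0.32 ± 0.049 and -0.31 ± 0.054 (SE), with edgeR adjusted p values of 6.35e-07 and 1.38e-05. Both calls were lost with limma on log2(TPM + 1) and log2(TPM + 0.1).

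In astrocytes, the same comparison was of 1 library with 1 library, so there is no replicate check and no test. Fold differences are ratios of TMM-scaled CPM, log2 ratios are S89G-DMP1 over WT with 2 prior counts added, and intervals are 95% exact binomial intervals that cover counting error only. All 10 members had at least 10 counts in 1 of the libraries. Of these, 5 were at least 2-fold higher (Bmp6, Chrdl1, Id1, Id2 and Id4), 3 at least 2-fold lower (Bmp2, Bmp7 and Nbl1) and 2 were under 2-fold (Bmp4 and Id3). Among all 15680 genes counted, 17.3% were at least 2-fold higher, 12.8% at least 2-fold lower and 30.1% either. The median log2 ratio was 0.54 over the members and 0.01 over all genes, and scaling by library size alone moved the latter to 0.30.

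**Figure D3:**
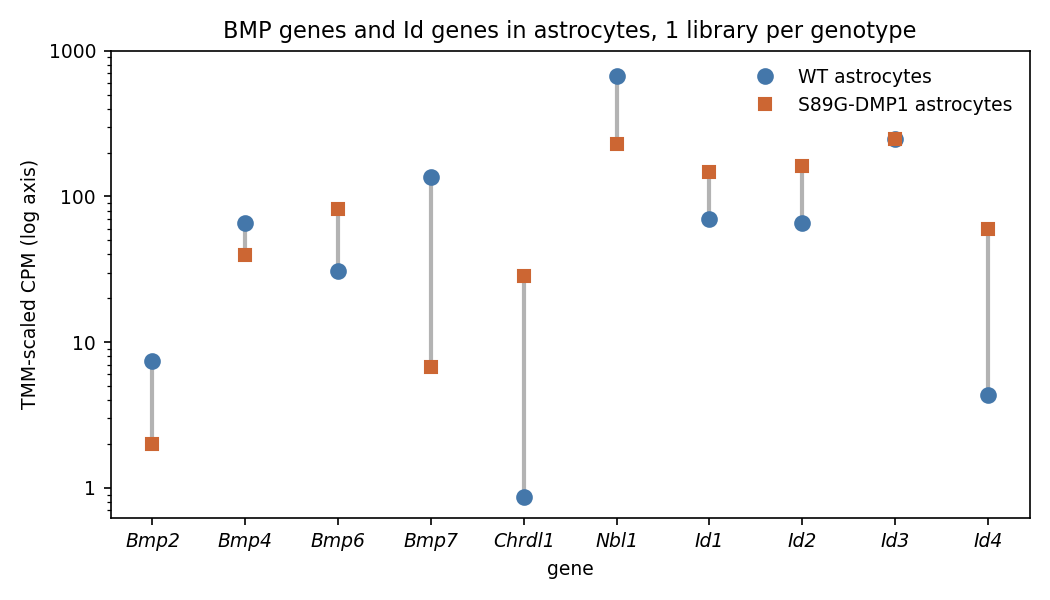
Levels of the 10 BMP and Id genes in the WT (circles) and S89G-DMP1 (squares) astrocyte library, as TMM-scaled CPM on a log axis, with 1 library per genotype and no error. The longest lines are those of Chrdl1, Bmp7 and Id4, and the 2 symbols of Id3 coincide.

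The make-up of the ligands differed between the astrocyte libraries. Bmp7 had 1722 counts in WT and 97 in S89G-DMP1 astrocytes, 136 and 6.74 CPM, which was 20.2-fold lower (16.4 to 25.0). Bmp6, a ligand of the same subgroup as Bmp7, had 390 and 1179 counts, 30.8 and 81.9 CPM, and was 2.66-fold higher (2.37 to 2.99). Reads of Bmp7 per read of Bmp6 were thus 4.42 in WT and 0.0823 in S89G-DMP1 astrocytes. Bmp4 had 834 and 571 counts, 65.8 and 39.7 CPM, a log2 ratio of -0.73 (-0.89 to -0.58). Bmp2, the close relative of Bmp4, had 94 and 29 counts and was 3.68-fold lower (2.41 to 5.80). Per kb, Bmp7 made up 46.3% and Bmp4 40.1% of the 4 ligands in WT astrocytes. In S89G-DMP1 astrocytes Bmp6 made up 51.4%, Bmp4 43.2% and Bmp7 4.10%, so Bmp4 held a like share in both libraries while Bmp7 and Bmp6 changed places.

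Both antagonists differed by more than 2-fold in astrocytes, again in opposite directions. Chrdl1 had 11 counts in WT and 411 in S89G-DMP1 astrocytes, 0.869 and 28.5 CPM, and was 32.9-fold higher with a wide interval (18.2 to 66.4) set by the 11 counts. Chrdl1 lies on chromosome X (GRCm38, 143285674 to 143394262), and the astrocyte libraries differed in Xist and Ddx3y as given above. Whether this had a part in the difference was not tested. Nbl1 had 8526 and 3288 counts, 673 and 228 CPM, and was 2.95-fold lower (2.83 to 3.07). Nbl1 was the member with the highest level per length in the library labelled WT astrocytes, at 331 CPM per kb. It was the third in the S89G-DMP1 library, at 112 CPM per kb, after Id3 at 139 and Id1 at 127 CPM per kb. Together the antagonists came to 674 CPM in the WT library, nearly all of it Nbl1. In the S89G-DMP1 library they came to 257 CPM, with 228 CPM from Nbl1 and 28.5 CPM from Chrdl1.

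The Id genes were level or higher in S89G-DMP1 astrocytes. Id4 had 55 counts in WT and 858 in S89G-DMP1 astrocytes and was 13.7-fold higher (10.4 to 18.4). Id1 had 890 and 2124 counts and was 2.10-fold higher (1.94 to 2.27), and Id2 had 833 and 2329 counts and was 2.46-fold higher (2.27 to 2.67). Id3 was at 249 CPM in both libraries, a log2 ratio of 0.00 (-0.07 to 0.07) that became 0.29 with library size alone as the scale. Of the Id transcripts per kb, Id3 made up 61.1% in WT and 40.0% in S89G-DMP1 astrocytes, Id1 26.6% and 36.5%, Id2 11.8% and 19.1%, and Id4 0.495% and 4.45%. Together the Id genes came to 389 CPM in the WT library and 618 CPM in the S89G-DMP1 library. The annotation places exons of other genes on the opposite strand of part of the exons of Id4, Bmp6 and Bmp4, and strand was not stated to be used in counting, so reads of these partners cannot be told apart over at most 5.74% of the exon length for any 1 partner.

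Marker lists of several cell types, among them that of astrocytes, also differed between the astrocyte libraries. The summed level of 10 astrocyte markers was 179 CPM in the WT and 1293 CPM in the S89G-DMP1 library, with 8 of 10 at least 2-fold higher and 1 lower, and that of 9 progenitor markers was 879 and 2409 CPM, with 6 of 8 counted higher. The 10 fibroblast and meningeal markers summed to 5424 and 2214 CPM, with 7 lower and 1 higher. The 6 endothelial markers summed to 193 and 70.9 CPM, with 3 of 5 counted lower and 1 higher, of which Cdh5 alone was at 151 and 1.60 CPM and Cldn5 at 0 in both. The 7 mural markers summed to 3266 and 3969 CPM, with 1 of 6 counted higher and 2 lower. Acta2 alone was at 723 and 2468 CPM, so the sum rose through this gene. The 5 microglia markers summed to 338 and 477 CPM, with 3 higher and 1 lower. The 6 oligodendrocyte markers summed to 49.4 and 91.1 CPM, with 1 of 4 counted higher and 0 lower. The 6 neuron markers summed to 75.9 and 217 CPM, with 2 of 3 counted higher and 1 lower. Map2 alone made up 8.29 and 193 CPM of the neuron sums. The part of these markers in the differences of Bmp7, Nbl1, Chrdl1 and Id4 was not tested. In NSCs, by contrast, fibroblast markers summed to 18.0 to 30.0 CPM and microglia markers to at most 0.856 CPM in any library, and endothelial markers to 5.56 to 10.5 CPM in S89G-DMP1 and 1.69 to 4.27 CPM in WT NSCs. Mural markers summed to 112 to 136 CPM in S89G-DMP1 and 175 to 178 CPM in WT NSCs, almost all of it reads of Cspg4. Cspg4 was the only 1 of 7 mural markers tested and was called lower (log2 fold change -0.56, edgeR adjusted p = 1.15e-08). The mural sum thus describes Cspg4 and not the mural list. Pdgfra, the most abundant of the fibroblast list, was 1 of 2 tested there and was also called lower (-0.84, edgeR adjusted p = 0.00402). Progenitor markers summed to 4698 to 4732 CPM in S89G-DMP1 and 4285 to 4502 CPM in WT NSCs. The part of these markers in the differences of the BMP and Id genes in NSCs was not tested.

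Of the 57 other pathway genes, 43 were counted in astrocytes, with 11 at least 2-fold higher, 13 at least 2-fold lower and a median log2 ratio of 0.00, beside shares over all counted genes of 17.3% on the higher and 12.8% on the lower side. Among ligands, Bmp3 had 3 and 47 counts, where the WT count is at the limit of 3 counts. Its fold is therefore given only as a counting interval of 4.44 to 69.2. Gdf6 had 35 and 106 counts, whereas Bmp8a was lower with 78 and 12 counts. Among antagonists, 4 were higher and 5 lower of 11 counted. Grem1, a gremlin of the DAN family to which Nbl1 belongs, had a log2 ratio of -3.62, while Sostdc1, another antagonist, had 0 counts in WT and 35 in S89G-DMP1 astrocytes. Bambi, a decoy receptor, had a log2 ratio of 1.59. Of 10 receptors and co-receptors, Rgma was higher (log2 ratio 2.91) and Eng and Acvrl1, which are known from endothelial cells, were lower (-6.39 and -4.74). Bmpr1b, which rose in NSCs, had 54 and 107 counts in astrocytes, under 2-fold by its log2 ratio of 0.78.

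The inhibitory Smad7 and Smad6, which are themselves turned on by BMP signals, were lower in S89G-DMP1 astrocytes, with log2 ratios of -2.14 and -1.67, whereas Smad1, Smad5, Smad9 and Smad4 were under 2-fold, at 0.02, 0.10, 0.30 and 0.00. Of the other targets, Hey1 was higher (3.28) and Msx2 and Msx1 were lower (-2.24 and -1.19). The 2 inhibitory SMADs and the Msx genes thus lay on the other side of 0 from Id1, Id2 and Id4. Among the bHLH genes, Olig1 had 4 and 2691 counts and Olig2 3 and 782 counts, both genes of the oligodendrocyte lineage, and the E proteins Tcf4 and Tcf12 had log2 ratios of -0.96 and 0.50.

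**Figure D4:**
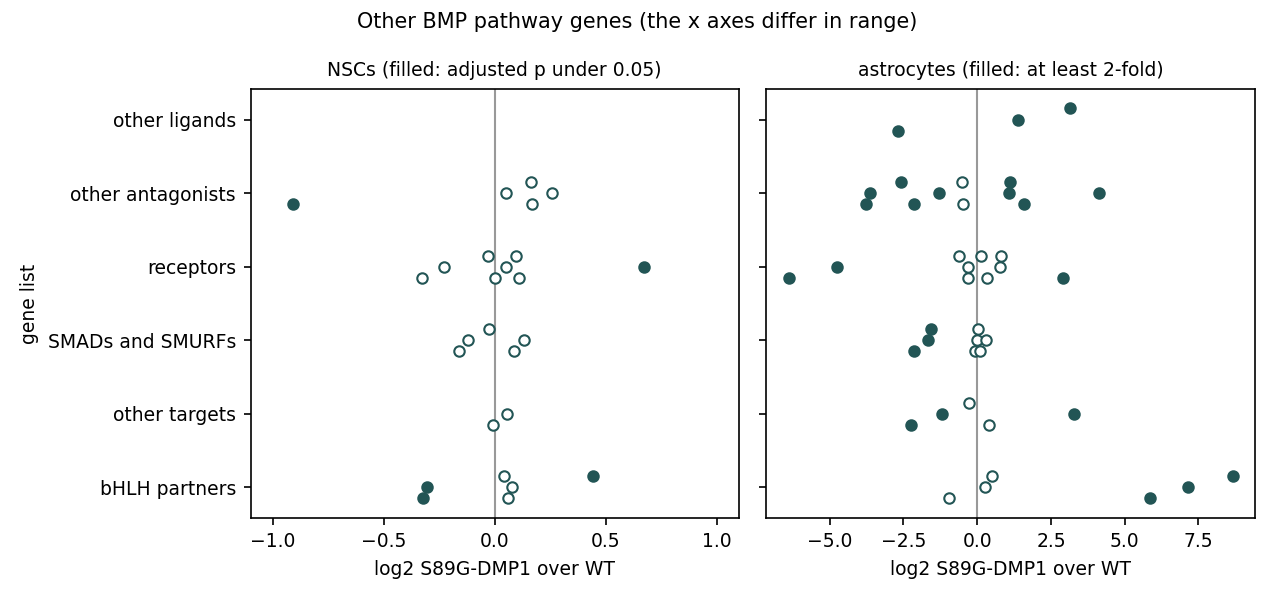
Log2 difference between S89G-DMP1 and WT of the other BMP pathway genes, by list, in NSCs (edgeR log2 fold change, filled where the adjusted p is under 0.05) and astrocytes (log2 ratio of 1 library to 1, filled where at least 2-fold), with 1 point per gene. The x axes differ in range, and the filled points are 2 above and 3 below 0 in NSCs and 11 above and 13 below 0 in astrocytes.

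Set side by side, Chrdl1 was higher and Nbl1 lower in S89G-DMP1 cells in both cell types, with log2 differences of 0.53 and -0.53 in NSCs and 4.82 and -1.56 in astrocytes. Bmp7 and Id2 lay on opposite sides, at 0.29 and -0.58 in NSCs and -4.31 and 1.30 in astrocytes, and Id3 was at 0.48 in NSCs and 0.00 in astrocytes. The difference between the cell types was not tested, since the astrocytes have 1 library per genotype and were aligned with other tools. The ligands Bmp2, Bmp4 and Bmp6 and the Id gene Id4, which were near or at 0 counts in NSCs, each had at least 55 counts in the WT astrocyte library. That library was deeper, with 14008670 reads on genes against at most 2588130 per NSC library. In CPM the 4 genes were at 7.42, 65.8, 30.8 and 4.34 there, against means of 0.140, 0, 0 and 0.939 in WT NSCs.

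**Figure D5:**
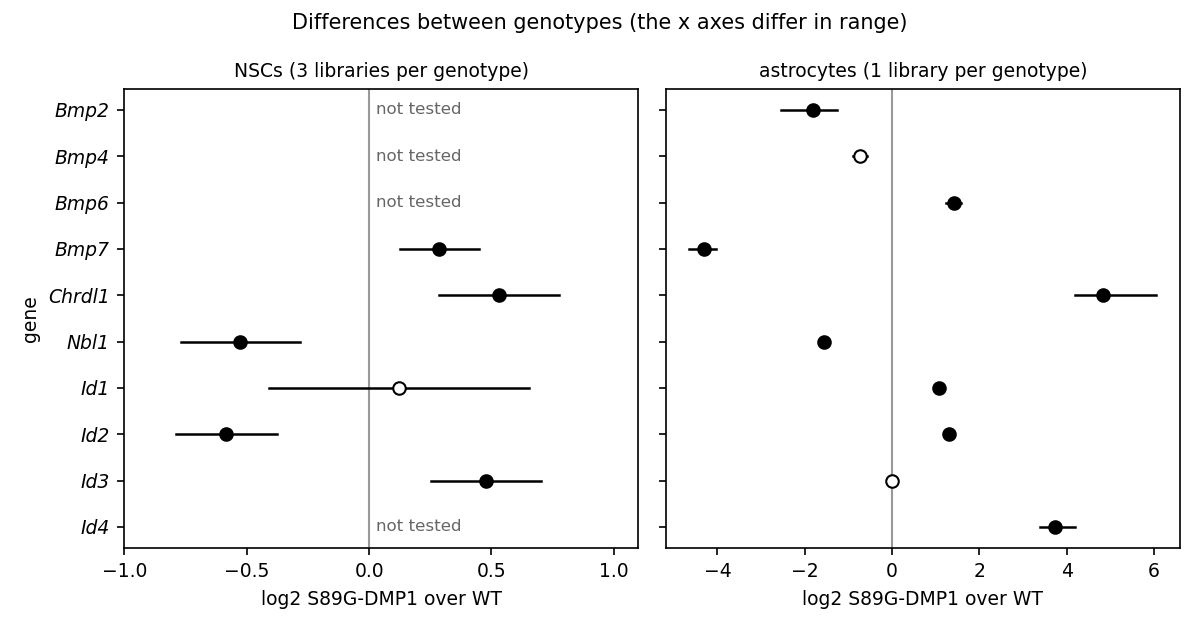
Log2 difference between S89G-DMP1 and WT of the 10 BMP and Id genes in NSCs (left, edgeR log2 fold change) and astrocytes (right, log2 ratio), where bars are 95% intervals that cover the spread between 3 libraries per genotype on the left and counting error only on the right. Filled points are called in NSCs or at least 2-fold in astrocytes, and Bmp7 and Id2 lie on opposite sides of 0 in the 2 panels.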

How the data were processed

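RNA of S89G-DMP1 and WT NSCs and astrocytes was sequenced. The authors deposited raw counts per gene with TPM values for NSCs and raw counts with FPKM values for astrocytes. Per the labels, NSC reads were processed with HISAT2, StringTie and featureCounts on GRCm38, and astrocyte reads with TopHat2 2.0.9 and Bowtie2 2.0.6, whose counter and build are not given in the sources used here. Some well counted genes are listed at 0 in the deposited TPM, so counts were used for the main comparison and the deposited TPM and FPKM only for alternatives.

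For the NSCs, filterByExpr removed genes with low counts, TMM gave the scaling factors, and 3 libraries were compared with 3 by the quasi-likelihood test of edgeR 4.0.16 in R 4.3.3, with Benjamini-Hochberg adjustment over all 11194 tested genes at 0.05. Astrocyte counts, 1 library per genotype, were described without a test, as log2 ratios of TMM-scaled CPM after adding 2 prior counts, where 1 or both libraries held 10 counts or more of the gene. Counting intervals were exact binomial at 95%, reads carry no molecular identifiers, and intervals and limits of 3 counts cover counting error only. Lengths and positions come from GENCODE exons on GRCm38. The procedure was tested on simulated data. The members and lists were chosen with earlier results of these data known, so they lend no independent support. Other pathway genes were named where called in NSCs, or, in astrocytes, as the 2 highest and 2 lowest of each list past 2-fold, and Smad1, Smad4, Smad5, Smad9, Bmpr1a, Bmpr1b, Bmpr2, Tcf4 and Tcf12 were also given as comparison after their values were seen. Some genes that this rule names are not reported here. The marker genes Aqp4, Slc1a3 and Gfap were likewise named after their values were seen. No sample was left out, and 0 columns were without a sample. Alternatives were DESeq2 1.42.0, upper-quartile and RLE factors, no scaling beyond library size, other filters, limma 3.58.1 on log2(TPM + 1) and log2(TPM + 0.1), each library left out and the replicate number as a block, and for astrocytes the deposited FPKM as log2(FPKM + 0.1) and log2(FPKM + 1), no scaling beyond library size, another prior count and other filters.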

Additional observations from a re-analysis of the deposited data

Results flagged for a closer look

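Bmp7 and Id2 stood out because both passed the test in NSCs and lay on the opposite side of 0 in astrocytes. Bmp7 had a log2 fold change of 0.29 in NSCs and a log2 ratio of -4.31 in astrocytes. Id2 had -0.58 in NSCs and 1.30 in astrocytes. In both genes every S89G-DMP1 NSC library lay on 1 side of every WT library, and the astrocytes had 1 library per genotype. The difference between the cell types was not tested.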

How the results depend on the processing

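None of the called or 2-fold different members changed direction under 15 alternatives in NSCs and 6 in astrocytes. Id1 in NSCs was called in none of the 15 and its log2 fold change ran from -0.36 to 0.26. Nbl1 was called in all 15 (largest adjusted p 0.0477), Chrdl1, Id2 and Id3 in 13, each lost only with limma on log2(TPM + 1) and log2(TPM + 0.1), and Bmp7 in 11. For all genes, DESeq2 called 348 higher and 503 lower against 792 and 981 with edgeR. With limma on log2(TPM + 1), 38 genes were higher and 107 lower, of the members 0 and 1, and of the other pathway genes 0 and 1. With log2(TPM + 0.1) these counts were 31 and 85, 0 and 1, and 0 and 0. In astrocytes, log2(FPKM + 1) gave 1020 genes at least 2-fold lower, and 10 counts in both libraries gave 1669 genes and 6 pathway genes at least 2-fold higher. Over the alternatives the astrocyte log2 ratio of Chrdl1 ran from 3.01 to 5.09 and that of Bmp2 from -1.86 to -0.83, in each case smallest in size with log2(FPKM + 1). In that setting Bmp2 was under 2-fold, and 2 members in place of 3 were at least 2-fold lower. The causes were not tested.

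The replicate numbers did not pair the libraries, with correlations of the deviations of same-numbered libraries of 0.03, -0.01 and -0.02. With the replicate block 829 genes were higher and 1016 lower, and 3 members were higher and 2 lower as without it. At the depth of the NSC libraries Bmp2, Bmp4, Bmp6 and Id4 could not be compared, and in astrocytes counting error is the only error the data give.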

Other observations

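Id2 had the smallest adjusted p of the members in NSCs. The genes whose log2 CPM followed it most closely over the 6 NSC libraries were Vps37c (Pearson r = 0.996), Dach1 (0.993) and Ivd (0.990), of 11193 genes compared, of which 273 had a correlation above 0.9. The points share the genotype groups and the library totals, and these values describe the 6 libraries only.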
